A study of Mus musculus with 9 samples.

Results

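The response of wild-type mouse dendritic cells to tumor DNA was read from 6 of the series' 9 arrays: the 3 whose titles name wild-type cells with tumor DNA and the 3 whose titles name wild-type cells in media. Arrays were paired by the number in the title, and a title without a number was taken as number 1. All 6 samples were dendritic cells derived from bone marrow of wild-type mice of the 129/SvEv background, in the presence of GM-CSF, the growth factor that turns marrow cells into dendritic cells, for 9 to 12 days. In the treated group, DNA purified from tumor cells, of a line the labels do not name, was delivered with the lipid transfection reagent Lipofectamine for 7 h before RNA was taken; the media group is labelled as unstimulated. Cells given the reagent without DNA were not analysed here, so what the DNA did and what the reagent did cannot be told apart. Whether the numbers stand for separate mice or cultures is not in the labels, and the p-values therefore cover no more than the spread among these 6 samples, which may be technical. Each array read the RNA of a whole culture, so fewer cells of a type and less RNA per cell cannot be told apart.

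DNA in the cytosol is bound by the enzyme cGAS, whose cyclic dinucleotide product activates the adaptor STING on the endoplasmic reticulum. STING recruits the kinase TBK1, which activates the transcription factor IRF3, and IRF3 with NF-kappaB switches on the gene for interferon beta. Secreted interferon then acts back on the same and neighbouring cells through its receptor and a complex of STAT factors with IRF9, which binds interferon-stimulated response elements in front of antiviral genes. In dendritic cells this route is known for driving maturation, that is costimulatory molecules, cytokines and antigen presentation to T cells.

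The deposited values are linear signals, each array already scaled to a trimmed mean of 500, with the lowest and highest 2% of values left out. Array medians were 55.1 to 66.1 units and the highest signal on any array was 42125. RNA integrity, read as the signal at the 3' end over that at the 5' end of a transcript, was alike on all 6 arrays, with Gapdh at 0.80 to 0.899 and actin at 1.04 to 1.14. The BioB spike-in was brighter on both arrays numbered 1, at 307 to 759, than on the remaining 4, at 87.3 to 239. Across genes, arrays of one group correlated at 0.958 to 0.97 and arrays of different groups at 0.927 to 0.949. Of the markers that define dendritic cells, Itgax (4108 to 6174 over the 6 arrays), H2-Aa (25947 to 35242) and Cd74 (18962 to 23790) were high, whereas Flt3 (5.74 to 38.6), Zbtb46 (56.2 to 147) and Cd209a (17.6 to 184) were far lower. Macrophage markers were also high: Csf1r read 20772 to 24868 and Cd68 9690 to 11314.

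In what follows, 3 values in a row are arrays 1, 2 and 3 of a group, in MAS5 signal units. A difference is tumor DNA minus media on the scale log2(signal + 16). The SE beside it is that of the limma fit, which shares the spread between probe sets. It is not the SE of the 3 pair differences alone, which can be larger or smaller. A gene was called, and is said to have risen or fallen, at a limma adjusted p below 0.05. Of 18193 genes, 1370 rose (7.53%) and 2902 fell (16%), 4272 in all (23.5%). These shares are the background for every count below. Of the 12626 genes above a filter on low signals, 1297 rose (10.3%) and 2872 fell (22.7%) in the same fit. Lists of well-expressed genes have to be read beside these higher shares. The share that fell lay near 22.7% in several lists below, among them the lysosomal (21.9%), guidance (21.7%) and chemoattractant receptor genes (25%). At the level of probe sets, 2584 of 45037 were higher (5.74%) and 4895 lower (10.9%), 7479 in all (16.6%). The 3 DNA arrays lay above all 3 media arrays for 2504 genes (13.8%) and below them for 4126 (22.7%), together 6630 (36.4%). The falls were more numerous but shallower: 226 called genes rose by at least 2 log2 units and 110 fell by as much, and 19 rose by at least 4 against 0 that fell by 4. Every called gene moved the same way in all 3 pairs. The median gene differed by -0.05. The numbers of calls depended on the fit: without the pairing 980 genes rose and 1799 fell, without an intensity trend in the variance 549 rose and 678 fell, and without the arrays numbered 3 the counts were 815 and 1353. Without those numbered 1 they were 1053 and 1900.

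**Figure D1:**
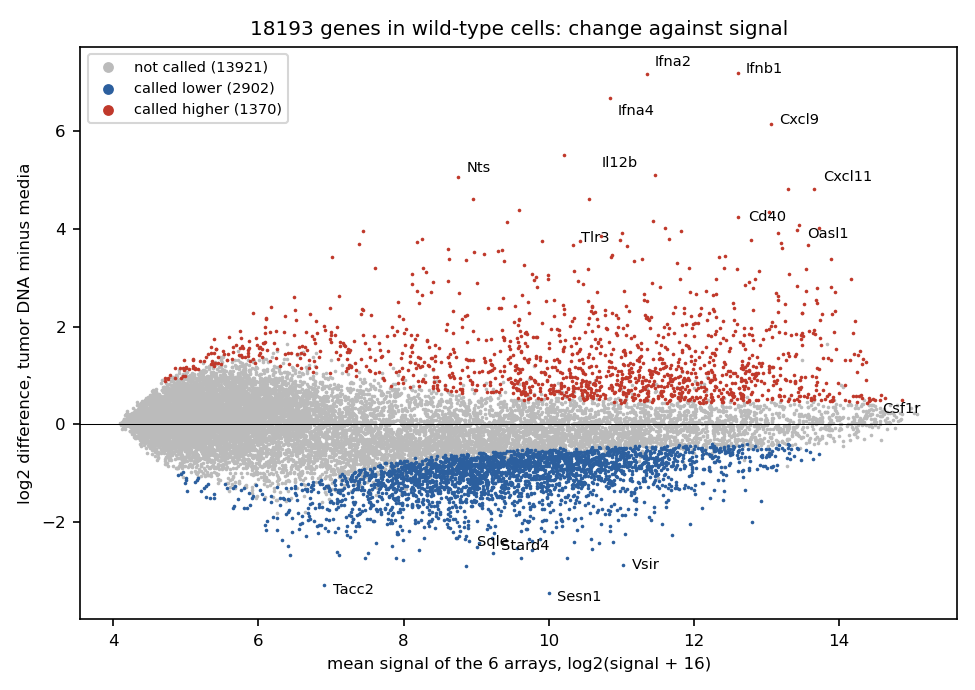
Each point is 1 of 18193 genes; the x axis is its mean signal over the 6 arrays as log2(signal + 16) and the y axis its log2 difference, tumor DNA minus media. The genes called higher (1370) reach 7.19 for Ifnb1, whereas the genes called lower (2902) stop at -3.45 for Sesn1.

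Interferon genes gave the 3 largest rises. Of 9 measured type I interferon genes 6 rose and 0 fell, with a list median of 3.79. The median was 2.37 with an offset of 64 and 2.53 without number 1, and 4 were called without the trend and 5 without number 3. Ifnb1, which encodes interferon beta, read 50.2, 47.3 and 72.4 in media and 21593, 5213 and 10275 with DNA. Ifna2, an interferon alpha gene, read 6.36, 4.18 and 7.06 in media and 11488, 787 and 3286 with DNA. Ifna4, an early interferon alpha, read 1.80, 6.28 and 6.32 against 8404, 568 and 1910. In each of the 3 genes the groups were far apart and array 1 was the highest and array 2 the lowest of the DNA arrays. The difference was 7.19 ± 0.33 for Ifnb1 (limma SE, n = 3 pairs, limma adjusted p = 3.79e-05). It was 7.16 ± 0.57 for Ifna2 (adjusted p = 0.000305) and 6.68 ± 0.65 for Ifna4 (adjusted p = 0.000686). Ifna5 rose by 5.52 ± 0.72 (adjusted p = 0.0023), Ifna9 by 3.79 and Ifnab by 3.21, whereas Ifna1 (0.05), Ifna11 (-0.01) and Ifnz (0.40) were not called. The interferon alpha genes are near-identical copies, so which of them a probe set read is uncertain. Media signals of the 4 leading genes lay near or below the array median, so the size of the rise depends on the offset: with 64 in place of 16 it was 6.46 for Ifnb1, 5.52 for Ifna2, 5.0 for Ifna4 and 4.18 for Ifna5.

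The stretches before the start sites of 5 interferon genes are shown because Ifna5 and Ifna1, with very different signals, share most letters there. Each is bases -220 to -91 from the start site in RefSeq (GRCm38.p6), read 5' to 3' on the gene's strand. Capitals mark the core of the interferon-stimulated response element, which is GAAA, any 2 bases and GAAA again on either strand, or the NF-kappaB consensus. Ifnb1 is at chr4:88522885-88523014, minus strand; Ifna2 at chr4:88683870-88683999, minus strand. Ifna4 is at chr4:88841596-88841725, plus strand, Ifna5 at chr4:88835305-88835434, plus strand and Ifna1 at chr4:88849867-88849996, plus strand.
Ifnb1: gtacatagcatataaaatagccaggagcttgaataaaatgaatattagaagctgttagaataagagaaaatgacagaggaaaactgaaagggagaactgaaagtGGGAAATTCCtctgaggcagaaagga
Ifna2: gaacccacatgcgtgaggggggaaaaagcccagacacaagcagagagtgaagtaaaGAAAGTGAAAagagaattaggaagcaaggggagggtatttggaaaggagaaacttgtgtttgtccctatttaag
Ifna4: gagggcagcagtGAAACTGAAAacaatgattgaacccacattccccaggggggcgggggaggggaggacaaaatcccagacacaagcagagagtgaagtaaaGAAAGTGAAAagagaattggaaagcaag
Ifna5: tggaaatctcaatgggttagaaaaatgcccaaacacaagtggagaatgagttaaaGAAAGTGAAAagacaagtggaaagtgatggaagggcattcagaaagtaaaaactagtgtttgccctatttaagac
Ifna1: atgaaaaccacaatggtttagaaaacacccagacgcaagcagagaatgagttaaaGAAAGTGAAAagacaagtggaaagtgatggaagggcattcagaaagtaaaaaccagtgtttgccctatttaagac
Ifnb1 holds an NF-kappaB match and no full response element core in this stretch. The 4 interferon alpha stretches all hold the core, and that of Ifna4 has 2 copies. Ifna5, which rose by 5.52, and Ifna1, which was not called at 0.05, have the same base at 112 of 130 positions and carry the same core. The match was 36 of 130 for Ifna4 and Ifna1, 42 for Ifna2 and Ifna1 and 46 for Ifna4 and Ifna2. Bases were compared at equal distances from the start site, so shared stretches that are shifted do not count. A match describes letters only and says nothing of binding. Over all 18109 RefSeq windows of 250 bases before a start site, which cover 14452 of the genes, 2.61% held the core. The share was 6.19% for genes called higher, 13.9% for those up by at least 2 log2 units (30 of 216 windows) and 1.97% for genes called lower. The NF-kappaB consensus was in 8.56% of all windows and 9.67% of those of genes called higher. Its share was 12% for those up by at least 2 log2 units (26 of 216 windows) and 8.3% for genes called lower.

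The sensing pathway itself moved in parts. Of 19 genes of DNA sensing and the STING relay 9 rose and 3 fell, with a median of 0.45. Among DNA sensors, Aim2, which starts the inflammasome, read 412, 598 and 376 in media and 1626, 1778 and 1898 with DNA. Zbp1, a sensor of nucleic acid in the Z form, read 1862, 1212 and 2403 against 10799, 6466 and 7540. Cgas read 533, 820 and 802 against 1860, 1467 and 1258. The groups did not overlap in any of the 3 genes, and the differences were 1.93 ± 0.17 for Aim2 (limma adjusted p = 0.000527), 2.19 ± 0.18 for Zbp1 (0.000351) and 1.08 ± 0.22 for Cgas (0.014). Samhd1, which degrades deoxynucleotides, rose by 1.76 ± 0.11 (adjusted p = 0.000136). In the relay, the kinase gene Tbk1 rose by 1.16 ± 0.13 (adjusted p = 0.0014) and Azi2, an adaptor of that kinase, by 1.37 ± 0.12 (adjusted p = 0.000518), whereas Sting1 differed by 0.45 ± 0.18 (adjusted p = 0.143). The 3 falls were Dnase2a (-1.78), the lysosomal nuclease that digests engulfed DNA, Rnf5 (-1.11), a ubiquitin ligase that marks STING for breakdown, and Irf3. Irf3 read 1366, 1093 and 1069 in media and 705, 837 and 804 with DNA, a fall of -0.57 ± 0.16 at the edge of the threshold (limma adjusted p = 0.0499). Its call ended without number 1, 2 or 3 (adjusted p = 0.17, 0.06 and 0.13), without the pairing (0.069), without the trend (0.18), with an offset of 64 (0.062), with quantile normalization (0.15) and when its probe sets were averaged (0.067). The Cgas call ended without the trend (adjusted p = 0.094), and Sting1 was called without number 2 (0.033). Over all alternatives the adjusted p ran from 0.0057 to 0.094 for Cgas, from 0.028 to 0.18 for Irf3 and from 0.033 to 0.52 for Sting1.

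Of 14 genes for interferon receptors, their kinases and STAT factors 6 rose and 2 fell (median 0.36). Stat2, a subunit of the complex that interferon activates, read 595, 508 and 477 in media and 2479, 2137 and 2735 with DNA, a rise of 2.18 ± 0.15 (limma adjusted p = 0.000185). The receptor kinase genes Jak2 (1.47 ± 0.12, adjusted p = 0.000407) and Tyk2 (1.10 ± 0.14, adjusted p = 0.00209) rose, as did Stat3 (1.15 ± 0.18, adjusted p = 0.00447) and Stat4 (1.60). The receptor chains did not rise: Ifnar1 differed by 0.44 ± 0.14 (adjusted p = 0.0645), Ifnar2 by 0.08 and Ifngr2 by 0.17, and Ifngr1, the ligand-binding chain for interferon gamma, fell by 1.20 on the log2 scale. Among 8 interferon regulatory factors 5 rose and 1 fell (median 0.65). Irf7, which amplifies interferon alpha transcription, read 1955, 1979 and 2453 in media and 20973, 17970 and 15643 with DNA, a rise of 3.08 ± 0.16 (adjusted p = 5.62e-05). Irf1 rose by 1.97 ± 0.12 (adjusted p = 0.00012), while Irf8, a factor that sets dendritic cell identity, differed by -0.02 ± 0.15 (adjusted p = 0.945). Without the trend 2 genes of the receptor list and 2 of the regulatory factors rose, and the calls of Tyk2 and Stat3 ended (adjusted p = 0.051 and 0.066), and Ifnar1 was called without number 1 (0.036) and with a filter on low signals (0.043). Their adjusted p ran over the alternatives from 0.00092 to 0.051 for Tyk2, 0.0012 to 0.066 for Stat3 and 0.036 to 0.28 for Ifnar1.

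Nearly all antiviral effectors rose. Of 43 measured genes 39 rose and 0 fell, with a median of 1.92 and quartiles of 1.32 and 2.44. The 4 others were Shisa5 (0.40), Ifitm1 (0.12), Ifitm2 (0.02) and Ifitm6 (-0.04). Oasl1, an oligoadenylate synthetase-like antiviral gene, read 1455, 1298 and 1128 in media and 22126, 20525 and 19057 with DNA. Mx2, a dynamin-like GTPase that blocks viruses, read 308, 278 and 201 against 4345, 3164 and 3768. Mx1, its relative, read 2954, 1563 and 2740 against 23617, 19306 and 21552. Each pair gave a difference of similar size, and the fits gave 3.98 ± 0.12 for Oasl1 (limma adjusted p = 1.45e-05), 3.77 ± 0.17 for Mx2 (3.57e-05) and 3.19 ± 0.16 for Mx1 (4.65e-05). The RNA sensor genes Ifih1 (2.14), Ddx58 (1.92) and Dhx58 (2.39) rose, as did the kinase gene Eif2ak2 (1.43), which halts translation, and the RNA-editing gene Adar (1.09).

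All 10 measured genes of the guanylate-binding and immunity-related GTPase families, whose products attack the vacuoles of intracellular pathogens, rose, with a median of 2.68. Iigp1 read 2719, 896 and 1546 in media and 27698, 23232 and 25141 with DNA, a rise of 4.01 ± 0.22 (limma adjusted p = 7.14e-05). Gbp2 read 3809, 2865 and 3298 against 26362, 21022 and 22299, Igtp 3186, 1939 and 3077 against 19066, 18805 and 19661, and Irgm1 3028, 2397 and 3620 against 18232, 15312 and 16241. In every case the 3 DNA arrays stood close together, well above the media arrays. Gbp2 rose by 2.80 ± 0.11 (adjusted p = 2.66e-05), Igtp by 2.84 ± 0.16 (adjusted p = 7.13e-05) and Irgm1 by 2.47 ± 0.14 (adjusted p = 7.14e-05). The response element core was in 7 of 9 windows of type I interferon genes and 12 of 47 of antiviral genes. It was in 2 of 23 windows of chemokine genes and 2 of 29 of cytokine genes, against 2.61% of all windows. Of the 8 RefSeq windows of the GTPase list, which cover 7 of its 10 genes, 7 held the core. Bases -100 to -1 of 3 of them are shown, with the core in capitals, to set its place in these genes beside that in the interferon genes: Gbp2 (chr3:142620563-142620662, plus strand), where it lies on the opposite strand, Igtp (chr11:58199456-58199555, plus strand) and Irgm1 (chr11:48871421-48871520, minus strand), where 2 cores overlap.
Gbp2: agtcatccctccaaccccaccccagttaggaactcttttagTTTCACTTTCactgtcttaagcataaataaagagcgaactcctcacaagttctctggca
Igtp: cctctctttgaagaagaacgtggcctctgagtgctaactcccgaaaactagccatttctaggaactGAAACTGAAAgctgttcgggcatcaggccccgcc
Irgm1: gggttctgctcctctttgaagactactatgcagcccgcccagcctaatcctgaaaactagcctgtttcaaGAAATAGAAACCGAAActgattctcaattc

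The 3 pairs differed widely in the size of the interferon rise and less in that of the antiviral genes, whose DNA arrays stood close together. Among the 6 interferon genes called higher, the highest DNA array read 4.14 to 17.7 times the lowest, with a median of 14.7, and array 1 was highest in all 6. Their median differences in pairs 1, 2 and 3 were 8.13, 3.95 and 5.95. For the 39 antiviral genes called higher the same ratio was 1.03 to 1.87, with a median of 1.21, and the pair medians were 2.01, 2.34 and 1.61. The 10 GTPase genes had a median ratio of 1.21 and all 1370 genes called higher had 1.41. Among the media arrays the median ratio was 2.6 for the interferon genes and 1.61 for the antiviral genes. It was 1.96 for the GTPase genes and 1.51 for all genes called higher. The 10 NF-kappaB pathway genes called higher were all highest on DNA array 1, with pair medians of 2.20, 0.72 and 1.44. A peak on array 1 was common, however: it was seen in 809 of all 1370 genes called higher. The same held for 27 of the 39 antiviral genes and 9 of the 10 GTPase genes. Beside this, the summed signals of several marker lists were also highest on the arrays numbered 1. That of 9 neutrophil markers was 84970 in media and 98132 with DNA, against 30596 to 53965 on the other 4 arrays. That of 10 macrophage and monocyte markers was 120830 and 125656, against 70224 to 81996. By less, so were those of 12 dendritic cell markers (87604 and 100565, against 77833 to 81753) and 7 erythroid and megakaryocyte markers (24632 and 31180, against 21248 to 24358). The remaining lists, summed over all measured members, did not have both arrays numbered 1 above the other 4. With called members left out, 2 of them did. The sums of 8 fibroblast and endothelial markers were then 5437 and 4611, against 681 to 1061. Those of 8 mast cell and basophil markers were 1563 and 1904, against 760 to 984. The part of cell make-up in the spread was not tested, nor was the part of any upper limit of the scanner in the narrow spread of the brightest genes.

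**Figure D2:**
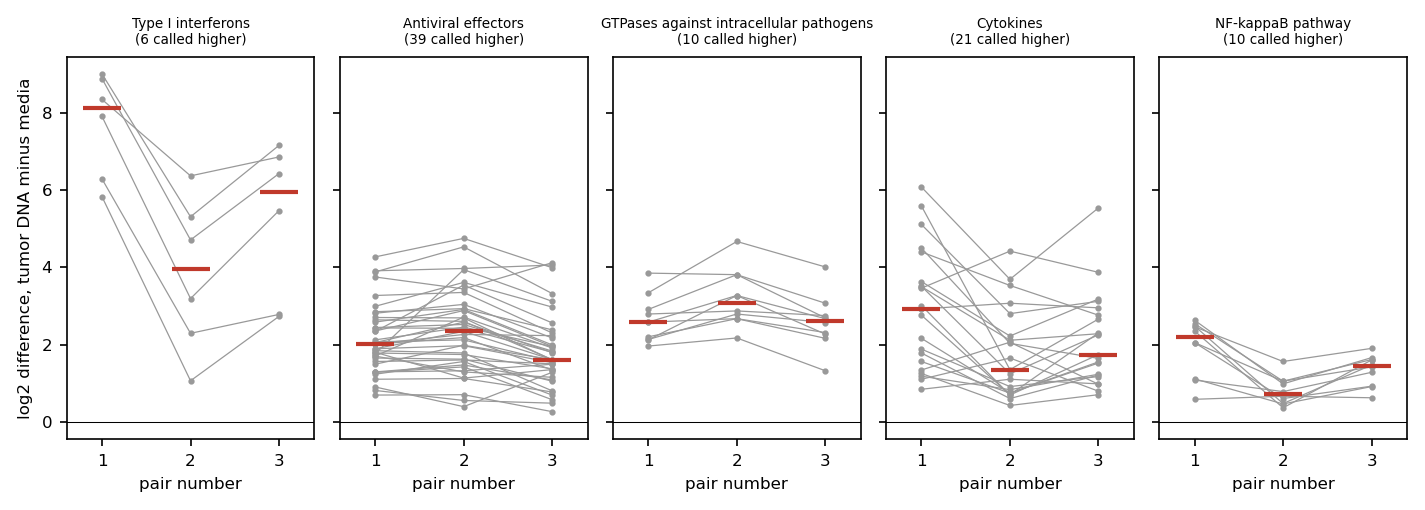
Log2 difference, tumor DNA minus media, on the y axis for each of the 3 pairs on the x axis; a grey line joins the values of 1 gene called higher and a red bar is the list's median in that pair. The 6 interferon genes drop to a median of 3.95 in pair 2 from 8.13 in pair 1, while the 39 antiviral genes stay at 2.01, 2.34 and 1.61.

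Among Toll-like receptors and their adaptors 7 of 23 rose and 1 fell (median 0.28). The receptors that rose included Tlr3, the endosomal sensor of double-stranded RNA, which read 390, 216 and 330 in media and 3938, 3838 and 4166 with DNA, a rise of 3.65 ± 0.17 (limma adjusted p = 4.36e-05). Tlr7, the sensor of single-stranded RNA, rose by 1.16 ± 0.16 (adjusted p = 0.00276) and Cd180, a relative of Tlr4, by 1.79 ± 0.16 (adjusted p = 0.000541). Tlr9, the endosomal DNA sensor, differed by 0.36, Tlr4 by 0.21 and Tlr1 by 0.01. The adaptor gene Myd88 rose by 1.06 ± 0.13 (adjusted p = 0.00188) and the kinase gene Irak1 fell by 1.15 on the log2 scale. Without the trend 2 members rose, the calls of Tlr7 (adjusted p = 0.056, range 0.00074 to 0.056) and Myd88 (0.055, range 0.00039 to 0.055) ending, and without number 3 the count was 4.

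Of 31 chemokines 11 rose and 1 fell (median 0.61, or 0.32 without number 1 and 0.39 with an offset of 64). Cxcl9, a ligand of the T cell receptor CXCR3, read 615, 97.5 and 122 in media and 27808, 9867 and 12615 with DNA, a rise of 6.14 ± 0.21 (limma adjusted p = 1.52e-05). Cxcl11, another ligand of that receptor, read 917, 686 and 1071 against 26454, 24207 and 24425 and rose by 4.81 ± 0.15 (adjusted p = 1.45e-05). Cxcl10 rose by 2.70 ± 0.12 (adjusted p = 3.19e-05). All DNA arrays lay far above the media arrays in these 3 genes. The monocyte attractants Ccl12 (3.77), Ccl8 (3.35 ± 0.30, adjusted p = 0.000486), Ccl7 (3.21) and Ccl2 (1.86) rose, whereas the neutrophil attractants Cxcl1 (0.82), Cxcl2 (0.77), Cxcl3 (0.27) and Cxcl5 (0.22) were not called. Cxcl13, the attractant of B cells, fell by 1.80 on the log2 scale. Without the pairing 7 chemokines rose and 0 fell, and 7 rose without the trend.

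Chemoattractant receptors moved in both directions. Of 28 chemokine and lipid chemoattractant receptors 4 rose and 7 fell (median 0.20). Ccrl2, a decoy-type receptor that presents chemerin, read 1703, 2211 and 1479 in media and 14884, 9408 and 13489 with DNA, a rise of 2.79 ± 0.21 (limma adjusted p = 0.000252). Ccr7, which guides mature dendritic cells to lymph nodes, rose by 1.20 ± 0.24 (adjusted p = 0.0122). Cx3cr1, the fractalkine receptor, read 2569, 571 and 906 in media and 448, 167 and 178 with DNA, a fall of -2.14 ± 0.20 (adjusted p = 0.000566). The falls also took in the leukotriene B4 receptor gene Ltb4r1 (-1.04 ± 0.17, adjusted p = 0.00558), Ccr2 (-1.04 ± 0.25, adjusted p = 0.025), the receptor for the monocyte attractants above, and Cxcr4 (-0.63). The rises numbered 2 and the falls 3 without the pairing or without number 3, and 3 and 3 without number 1. Ccr7 lost its call without number 3 (adjusted p = 0.083), the pairing (0.059) or the trend (0.093), over a range of 0.00015 to 0.093, and Ccr2 without number 1 or 3 (0.077 and 0.12), the pairing (0.19), the trend (0.13) or with the mean of probe sets (0.072), over 0.00053 to 0.19. The Ltb4r1 call ended without the trend (0.06, range 0.002 to 0.06).

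Cytokines rose broadly. Of 31 cytokine genes 21 rose and 0 fell, with a median of 1.28. Il12b, the shared subunit of interleukins 12 and 23, read 138, 165 and 66.1 in media and 10441, 2317 and 3813 with DNA, a rise of 5.10 ± 0.39 (limma adjusted p = 0.00026). Il15, which sustains natural killer and memory T cells, read 1029, 541 and 833 against 7894, 4646 and 6549, a rise of 2.98 ± 0.12 (adjusted p = 2.66e-05). Il15ra, the receptor chain that presents it to those cells, rose by 3.42 ± 0.15 (adjusted p = 3.59e-05). Il33, an alarmin usually made by barrier tissue, read 34.7, 81.7 and 190 in media and 1056, 1110 and 1377 with DNA, a rise of 3.56 ± 0.30 (adjusted p = 0.000382). Il6 rose by 3.68 ± 0.38 (adjusted p = 0.000919) and Tnf by 3.20 ± 0.64 (adjusted p = 0.0127); the difference for Tnf was 5.59, 1.35 and 2.66 in pairs 1, 2 and 3. Il10, an inhibitory cytokine, read 54.9, 16.8 and 37.4 against 163, 121 and 88.9, a rise of 1.46 ± 0.36 from signals near the floor (adjusted p = 0.0289). The call of Il10 ended without number 1, 2 or 3 (adjusted p = 0.084, 0.13 and 0.071) or the trend (0.053), over a range of 0.0067 to 0.13. Without the trend 7 cytokines were called, and that of Tnf ended (0.086, range 0.00026 to 0.086).

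Most called genes of maturation and all of class I presentation rose, whereas 5 of 6 called class II genes fell. Of 31 costimulation and maturation genes 17 rose and 1 fell (median 1.02). Cd40, the receptor for T cell help, read 751, 612 and 423 in media and 17487, 9243 and 8892 with DNA, a rise of 4.25 ± 0.15 (limma adjusted p = 1.68e-05). Cd86, a ligand of CD28, read 3219, 1822 and 2679 against 19977, 13463 and 13881 and rose by 2.62 ± 0.14 (adjusted p = 5.62e-05), and Cd80 rose by 1.79 ± 0.21 (adjusted p = 0.00158). Cd83 (0.54) and Relb (0.36) were not called. The single fall was Vsir, an inhibitory B7-family checkpoint, which read 5763, 2351 and 2967 in media and 501, 450 and 408 with DNA, a fall of -2.88 ± 0.21 (adjusted p = 0.000218). Cd274, the checkpoint ligand PD-L1, rose by 2.11 ± 0.16 (adjusted p = 0.000222).

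Of 19 class I genes 11 rose and 0 fell (median 0.92). Nlrc5, the transactivator of class I genes, read 903, 485 and 821 in media and 6568, 4140 and 4857 with DNA, a rise of 2.81 ± 0.14 (limma adjusted p = 5.49e-05). The peptide transporter gene Tap1 rose by 2.36 ± 0.16 (adjusted p = 0.000152) and the immunoproteasome genes Psmb9 (1.62), Psmb10 (1.45) and Psmb8 (0.98) rose, while the heavy chain H2-K1, already at 18095 to 20622 in media, differed by 0.29 ± 0.12 (adjusted p = 0.141). H2-K1 was called with a filter on low signals (adjusted p = 0.027) and when its probe sets were averaged (0.048), over a range of 0.027 to 0.68. Of 15 class II genes 1 rose and 5 fell (median -0.07). The abundant chains H2-Aa (0.11), H2-Ab1 (-0.20) and Cd74 (0.14) were not called. Ciita, the class II transactivator, read 873, 464 and 333 in media and 400, 280 and 176 with DNA: lower in each pair, with groups that overlap, a fall of -0.89 ± 0.18 (adjusted p = 0.014). Only 1 class II gene had all DNA arrays below all media arrays, 0 fell without the pairing or without the trend, 1 without number 1 and 2 without number 3. The Ciita call ended in each of these fits (adjusted p = 0.2, 0.07, 0.06 and 0.073), with quantile normalization (0.055) and with the mean of probe sets (0.051), over 0.0064 to 0.2.

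**Figure D3:**
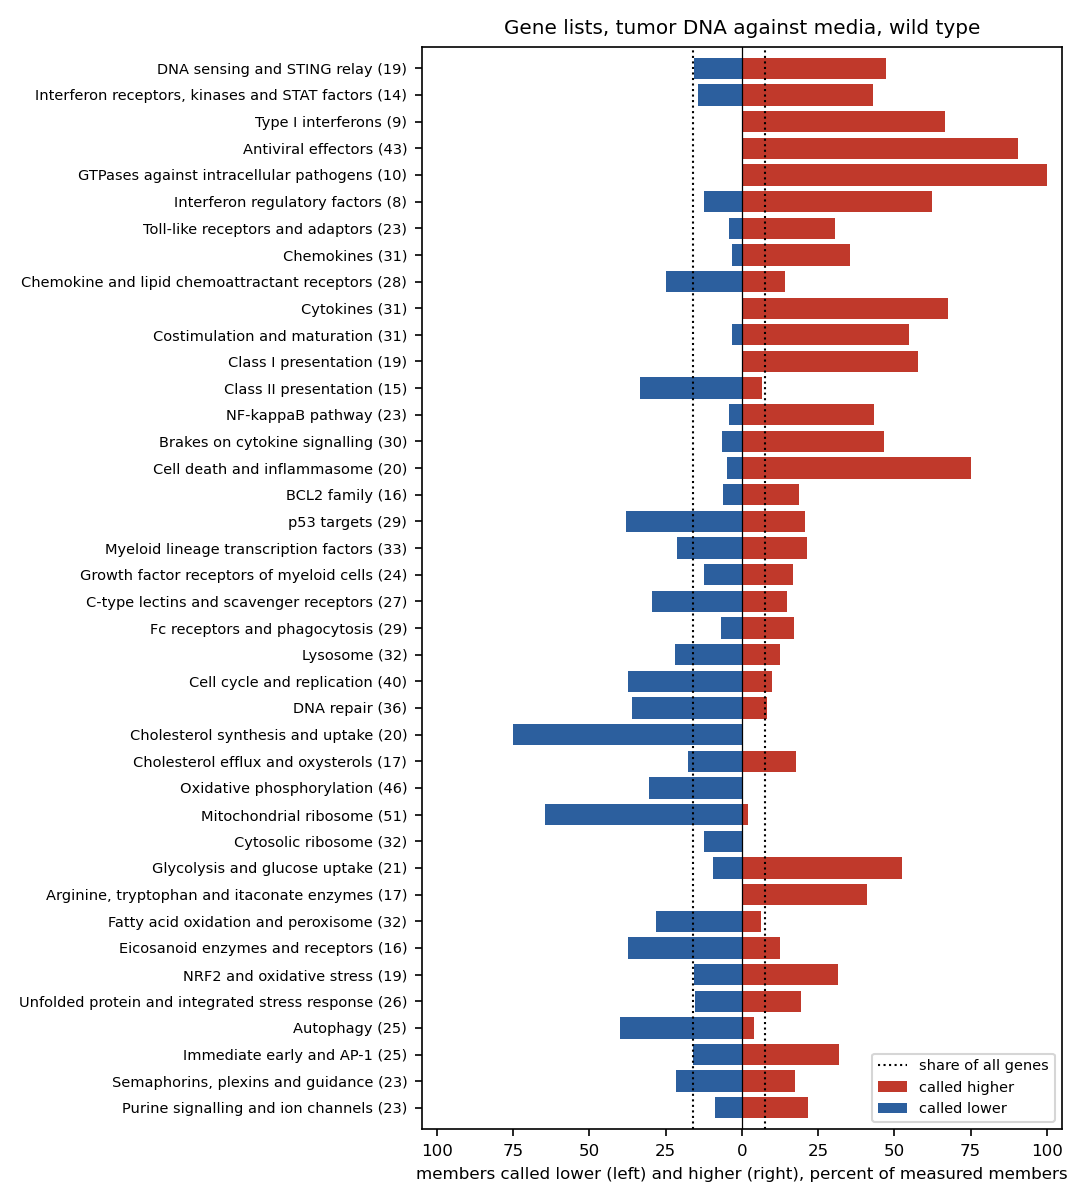
Bars give, for 40 gene lists with the number of measured members in brackets, the percent of members called higher (red, right) and lower (blue, left); dotted lines are the shares of all genes, 7.53% and 16%. The GTPases (10 of 10) and antiviral effectors (39 of 43) extend furthest to the right, and cholesterol synthesis (15 of 20) and the mitochondrial ribosome (33 of 51) furthest to the left.

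Among 23 NF-kappaB pathway genes 10 rose and 1 fell (median 0.62). Subunit gene Rel rose by 1.51 ± 0.21 (limma adjusted p = 0.00288) whereas Rela (0.37), Nfkb2 (0.63) and Relb (0.36) were not called. The caspase inhibitor gene Cflar rose by 1.97 ± 0.17 (adjusted p = 0.000484) and the feedback inhibitor Tnfaip3 by 1.73 ± 0.25 (adjusted p = 0.00326), and Ikbkb, a subunit of the activating kinase, fell by 0.57 on the log2 scale. Of 30 brakes on cytokine signalling 14 rose and 2 fell (median 0.59). Socs1, which inhibits the kinases of interferon receptors, read 92.6, 156 and 322 in media and 2534, 2017 and 2552 with DNA, a rise of 3.68 ± 0.28 (adjusted p = 0.000253). Usp18, which removes the ISG15 modifier and blocks the interferon receptor, rose by 2.26 ± 0.16 (adjusted p = 0.000185). Socs5 (-1.67) and Socs4 (-0.50) fell. The list of 25 immediate early genes, AP-1 subunits included, had 8 that rose and 4 that fell (median 0.36), with Batf2 up by 2.52 ± 0.15 (adjusted p = 8.56e-05) and Fos (-0.16) not called. Without number 3 the rises were 5 in the NF-kappaB list and 5 in the AP-1 list, and without the trend 2, 8 and 4 in the 3 lists, with Tnfaip3 not called (adjusted p = 0.054, range 0.00014 to 0.054). The AP-1 median was 0.01 without number 1.

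Of 20 cell death and inflammasome genes 15 rose and 1 fell (median 1.20). Mlkl, the pore-forming effector of necroptosis, read 1252, 1243 and 1311 in media and 6829, 5764 and 5947 with DNA, a rise of 2.27 ± 0.13 (limma adjusted p = 7.13e-05). Daxx, a death-associated nuclear chaperone, rose by 2.66 ± 0.12 (adjusted p = 3.79e-05), and the inflammatory caspase genes Casp1 (1.64 ± 0.13, adjusted p = 0.000286) and Casp4 (2.15) rose with the pore gene Gsdmd, whereas Gsdme fell by 1.20 on the log2 scale. In the BCL2 family 3 of 16 rose and 1 fell (median 0.13). The pro-death gene Bid rose by 0.99 ± 0.15 (adjusted p = 0.00415), and Bmf, also pro-death, fell by -2.28 ± 0.32 (adjusted p = 0.00321), but its 2 other probe sets ran from -0.82 to 2.22 and their mean gave no call (adjusted p = 0.54, range 0.00021 to 0.54). The Bid call ended without the trend (0.06, range 0.0018 to 0.06). Death gene rises numbered 9 without the trend, and BCL2 family rises 1 without number 3 and 0 without the trend.

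Genes of the p53 target list divided. Of 29, 6 rose and 11 fell (median -0.43, or -0.25 without number 2 and -0.27 without number 1 or with probe sets averaged). Mdm2, which degrades p53, read 1885, 2106 and 2396 in media and 7191, 4820 and 6481 with DNA. Cdkn1a, the cell cycle inhibitor p21, read 3848, 4736 and 9128 against 12750, 12048 and 16942. Gadd45b, a stress sensor, read 1278, 1065 and 1097 against 7755, 3163 and 4027. All DNA arrays were above all media arrays, and the rises were 1.51 ± 0.16 for Mdm2 (limma adjusted p = 0.00097), 1.32 ± 0.17 for Cdkn1a (0.00198) and 2.0 ± 0.20 for Gadd45b (0.000702). Sesn1, an inhibitor of mTORC1, was the gene that fell most: it read 2590, 1122 and 1904 in media and 164, 129 and 151 with DNA, a fall of -3.45 ± 0.20 (adjusted p = 8.35e-05). Trp53inp1 fell by -1.40 ± 0.14 (adjusted p = 0.000723), and Zmat3 (-2.09) and the repair gene Xpc (-1.60) fell too. Without number 3 the counts were 4 and 6, with quantile normalization or the mean of probe sets 6 and 7, and without the trend 2 and 3. The Cdkn1a call ended without the trend (adjusted p = 0.05, range 0.00027 to 0.05).

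**Figure D4:**
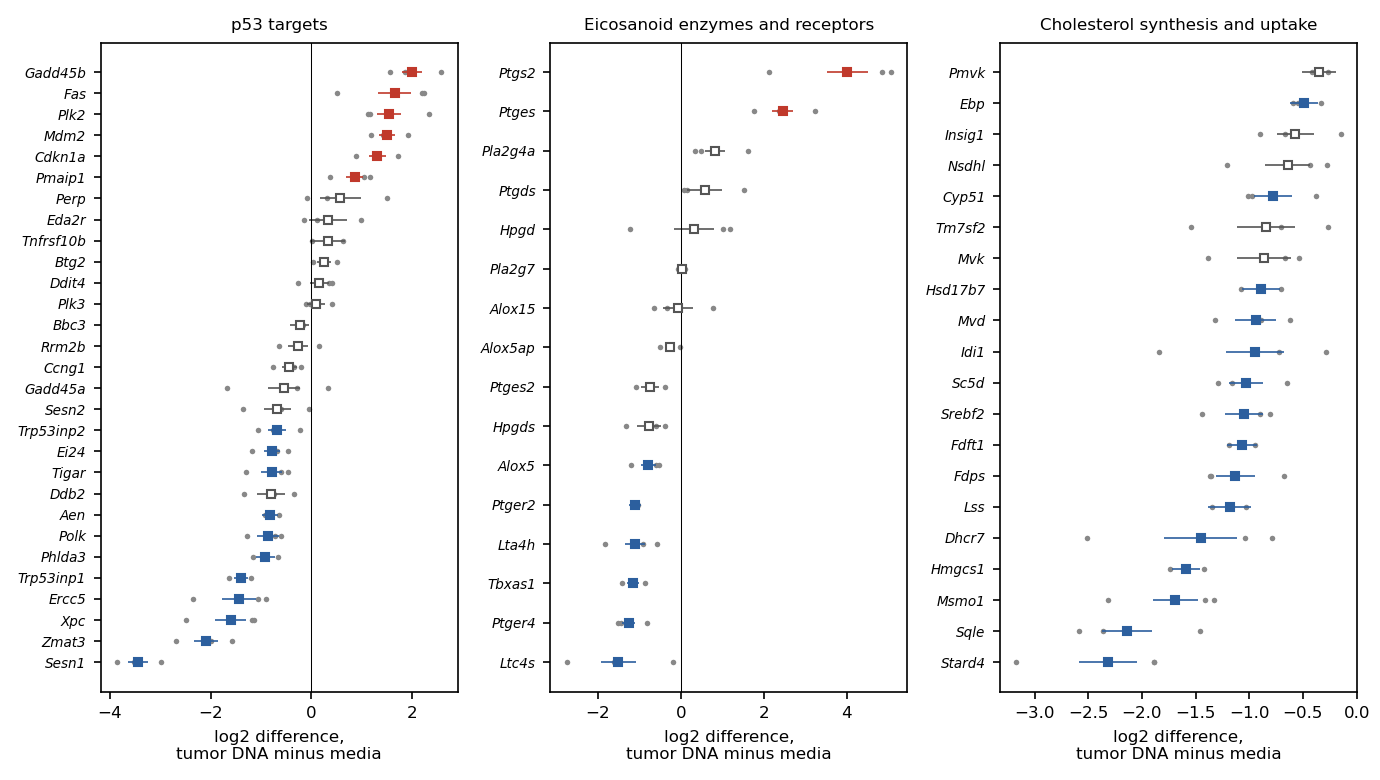
Log2 difference, tumor DNA minus media, on the x axis for each measured gene of 3 lists; squares are the fitted value with its SE as a bar, filled red or blue where called higher or lower and open where not called, and grey dots are the 3 pairs. The p53 target list runs from 2.0 for Gadd45b to -3.45 for Sesn1. The eicosanoid genes run from 4.01 for Ptgs2 to -1.51 for Ltc4s, and all cholesterol genes lie below 0.

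Identity genes of myeloid cells moved in both directions. Of 33 lineage transcription factors 7 rose and 7 fell (median 0.34). Cebpa, a driver of the granulocyte and monocyte lineage, read 1299, 766 and 682 in media and 170, 195 and 196 with DNA, a fall of -2.14 ± 0.24 (limma adjusted p = 0.00126). Id3 (-1.97), Pparg (-1.68) and Batf3 (-1.17 ± 0.20, adjusted p = 0.00681), which is needed by cross-presenting dendritic cells, also fell. Nr4a3, an orphan nuclear receptor of migrating dendritic cells, rose by 1.88 ± 0.24 (adjusted p = 0.00209) though its 2 other probe sets differed by -0.08 and 0.45, and Spi1, the gene for PU.1, differed by 0.35 ± 0.14 (adjusted p = 0.138). Among 24 growth factor and cytokine receptors 4 rose and 3 fell (median 0.04). Il13ra1 was up by 2.72 ± 0.15 (adjusted p = 6.66e-05) and Il6st, the shared chain of interleukin 6 receptors, down at -1.64 ± 0.26 (adjusted p = 0.00486). Csf1r (0.06) and Csf2rb (0.05), the GM-CSF receptor chain, were not called from their brightest probe sets. Another Csf1r probe set was called lower (-0.67 ± 0.12, limma adjusted p = 0.00739), and a further one differed by -0.26. Without number 3 the lineage counts were 4 and 3 and 1 receptor fell, and Batf3 was not called (adjusted p = 0.054, range 0.0019 to 0.054). Without the pairing 4 and 5 factors were called, and without the trend 2 and 5. The Il6st call ended without the trend (0.054, range 0.00078 to 0.054).

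Uptake and lysosomal genes moved in both directions. The share that fell was 29.6% for lectins and scavenger receptors, 6.9% for Fc receptors and phagocytosis and 21.9% for the lysosome. It was 16% for all genes and 22.7% for those above the filter. Of 27 C-type lectins and scavenger receptors 4 rose and 8 fell (median 0.00). Clec4a2, an inhibitory lectin, read 11064, 11823 and 11400 in media and 2781, 5678 and 3653 with DNA, a fall of -1.56 ± 0.18 (limma adjusted p = 0.00134), and its relative Clec4b1 fell by -2.08 ± 0.21 (adjusted p = 0.000872). The haemoglobin scavenger receptor Cd163 read 483, 326 and 250 in media and 82.9, 59.1 and 75.5 with DNA, a fall of -2.02 ± 0.26 (adjusted p = 0.00231). Ly75, the endocytic receptor DEC-205, rose by 1.74 ± 0.22 (adjusted p = 0.00208). Of 29 Fc receptor and phagocytosis genes 5 rose and 2 fell (median 0.06). Fcgr1, the high-affinity receptor for IgG, read 5157, 1626 and 3789 in media and 16709, 13644 and 11087 with DNA, a rise of 2.10 ± 0.27 (adjusted p = 0.00209), and Itgb5, a subunit of an integrin for apoptotic cells, fell by -2.04 ± 0.24 (adjusted p = 0.00144). Of 32 lysosomal genes 4 rose and 7 fell (median -0.08), led by Gusb (-0.96 ± 0.13, adjusted p = 0.0025) and Gla (1.09 ± 0.14, adjusted p = 0.00223). Lysosomal falls numbered 2 without number 1 or 3, 1 without the pairing and 0 without the trend, which ended the calls of Gusb (adjusted p = 0.062, range 0.00055 to 0.062) and Gla (0.056, range 0.00067 to 0.059). Phagocytosis counts were 3 and 1 without the pairing, 2 and 1 without the trend, 8 and 6 with a filter on low signals, and 6 and 5 with quantile normalization. Lectin counts were 3 and 5 without the pairing and 1 and 3 without the trend.

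Of 40 cell cycle and replication genes 4 rose and 15 fell (median -0.74), but only 5 had all DNA arrays below all media arrays. Without the pairing 3 rose and 1 fell, and 9 fell without number 2 or with quantile normalization, against 5 without the trend. Cdk4, the cyclin D partner, read 1306, 1992 and 1759 in media and 623, 841 and 886 with DNA, a fall of -1.09 ± 0.14 (limma adjusted p = 0.00202). Mki67, a mark of dividing cells, read 1058, 3030 and 686 in media and 905, 743 and 673 with DNA, and differed by -0.75 ± 0.34 (adjusted p = 0.197). The D-type cyclins went the other way: Ccnd1 read 399, 1099 and 2208 in media and 2376, 7681 and 6390 with DNA, a rise of 2.28 ± 0.23 (adjusted p = 0.000783), and Ccnd2 rose by 2.46. Of 36 DNA repair genes 3 rose and 13 fell (median -0.63). Chek2, a checkpoint kinase, read 465, 377 and 270 in media and 76.0, 114 and 91.0 with DNA, a fall of -1.80 ± 0.27 (adjusted p = 0.00376). Apex1, the abasic site nuclease, fell by -1.56 ± 0.19 (adjusted p = 0.0019) and Fanca rose by 1.45 ± 0.19 (adjusted p = 0.00246). Repair falls numbered 6 without number 3 and 7 without the trend.

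Most genes of cholesterol synthesis fell. Among 20 synthesis and uptake genes there were 15 falls and 0 rises (median -0.99). Hmgcs1, an early enzyme of the mevalonate route, read 5765, 3763 and 4631 in media and 1712, 1398 and 1503 with DNA. Sqle, which oxidises squalene, read 1361, 1202 and 1393 against 212, 221 and 495. Stard4, a carrier of cholesterol, read 1294, 634 and 1010 against 130, 159 and 261. The groups did not overlap, with falls of -1.59 ± 0.13 for Hmgcs1 (limma adjusted p = 0.000306), -2.14 ± 0.23 for Sqle (0.00103) and -2.32 ± 0.27 for Stard4 (0.00152). Srebf2, the transcription factor of this route, fell by 1.05 on the log2 scale. Beside these, Ch25h, which makes 25-hydroxycholesterol, an inhibitor of that factor's processing, read 358, 1674 and 3319 in media and 13421, 18796 and 18807 with DNA, a rise of 3.71 ± 0.41 (adjusted p = 0.00116). Its list of 17 efflux and oxysterol genes had 3 rises and 3 falls (median -0.42), with the exporter gene Abcg1 up by 1.22 ± 0.14 (adjusted p = 0.0013), the oxysterol receptor gene Gpr183 down at -1.26 ± 0.21 (adjusted p = 0.00593) and the desaturase gene Scd2 at -2.27 ± 0.35 (adjusted p = 0.00428). Without the pairing 9 synthesis genes fell and without the trend 6, when the Scd2 call ended (adjusted p = 0.057, range 0.0004 to 0.057).

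Eicosanoid genes moved in both directions. Of 16, 2 rose and 6 fell (median -0.51). Ptgs2, the inducible cyclooxygenase, read 357, 197 and 144 in media and 12454, 910 and 4564 with DNA, a rise of 4.01 ± 0.50 (limma adjusted p = 0.00187). Ptges, which makes prostaglandin E2 from its product, read 211, 685 and 233 against 1155, 2378 and 2299, a rise of 2.45 ± 0.25 (adjusted p = 0.00093). The groups were apart in both genes, with the smallest rise in pair 2. The receptors for that prostaglandin, Ptger2 (-1.10 ± 0.14, adjusted p = 0.00187) and Ptger4 (-1.26), fell, as did thromboxane synthase Tbxas1 (-1.15 ± 0.14, adjusted p = 0.00188) and the leukotriene enzymes Alox5 (-0.78), Lta4h (-1.11) and Ltc4s (-1.51). The falls numbered 3 without the pairing, when Ptger2 was not called (adjusted p = 0.12, range 0.00093 to 0.12), and 1 without the trend, when Tbxas1 was not called (0.051, range 0.0006 to 0.051).

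Of 51 mitochondrial ribosome genes 33 fell and 1, Mrpl39, rose (median -0.68). Mrps18b read 697, 1120 and 1133 in media and 171, 243 and 175 with DNA, a fall of -2.22 ± 0.19 (limma adjusted p = 0.000434), and Mrpl12 read 1879, 2415 and 2216 against 552, 753 and 751, a fall of -1.65 ± 0.13 (adjusted p = 0.000318). Of 46 oxidative phosphorylation genes 14 fell and 0 rose (median -0.34), led by the complex I gene Ndufs7 at -1.08 ± 0.17 (adjusted p = 0.00509). Of 32 cytosolic ribosome genes 4 fell and 0 rose (median -0.08). These counts shifted with the fit. Mitochondrial ribosome falls were 17 without the pairing, 16 without number 3 and 5 without the trend. Oxidative phosphorylation falls were 29 with quantile normalization, 5 without the pairing or number 1, 1 without number 3 and 0 without the trend, when Ndufs7 was not called (adjusted p = 0.07, range 0.0014 to 0.07). Cytosolic ribosome falls were 10 with quantile normalization, 7 with a filter on low signals, 2 without the pairing and 0 without number 3. The letters GCGC, any base, T and GCGC again are an element bound by the mitochondrial regulator NRF1. On either strand, they were in 10.5% of windows of all genes called lower and 6.02% of all windows. The share was 10.9% for the mitochondrial ribosome list (5 of 46 windows), close to that of genes called lower at large. It was 15% for the oxidative phosphorylation list (6 of 40 windows). Whether base composition sets these shares was not tested.

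Carbon and amino acid enzymes rose in part. Of 21 glycolysis and glucose uptake genes 11 rose and 2 fell (median 0.58). Hk3, a hexokinase of myeloid cells, read 3184, 3507 and 3148 in media and 13751, 10418 and 9143 with DNA, a rise of 1.73 ± 0.15 (limma adjusted p = 0.000405), while Pkm (0.23) and Aldoa (0.13) were not called. Of 17 arginine, tryptophan and itaconate genes 7 rose and 0 fell (median 0.68). Nos2, the inducible nitric oxide synthase, read 3.18, 2.36 and 7.19 in media and 208, 284 and 438 with DNA, a rise of 3.96 ± 0.34 (adjusted p = 0.00045) that was 2.41 with an offset of 64. The arginine importer gene Slc7a2 (1.92 ± 0.21, adjusted p = 0.00114) and Gch1, which makes the cofactor of that enzyme (1.88 ± 0.26, adjusted p = 0.00278), rose with it. Arg1 (-0.48) was not called. Of 32 fatty acid oxidation and peroxisome genes 2 rose and 9 fell (median -0.41), with the acyl-CoA dehydrogenase gene Acadm at -1.55 ± 0.19 (adjusted p = 0.00167). Glycolysis rises were 6 without the pairing or number 3, 7 without number 1 and 1 without the trend, and those of the arginine list 3 without the trend, when Gch1 was not called (adjusted p = 0.051, range 0.00041 to 0.051). Fatty acid falls were 6 without number 3 and 2 without the trend.

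Among 19 oxidative stress genes of the NRF2 list 6 rose and 3 fell (median 0.23), with Hmox1, heme oxygenase, up by 0.81 ± 0.13 (limma adjusted p = 0.0047). Of 26 genes of the unfolded protein and integrated stress responses 5 rose and 4 fell (median 0.09). Ppp1r15a, which restores translation after stress, read 482, 734 and 540 in media and 4489, 1680 and 1781 with DNA, a rise of 2.02 ± 0.33 (adjusted p = 0.00557), and the sensor kinase gene Eif2ak3 fell by -1.41 ± 0.21 (adjusted p = 0.00391). Of 25 autophagy genes 10 fell and 1, the cargo receptor Sqstm1, rose (median -0.39), with Atg5 at -0.93 ± 0.14 (adjusted p = 0.00386). Autophagy falls were 3 without number 1 or 3 or with quantile normalization, 5 without the pairing, 4 with the mean of probe sets and 0 without the trend. NRF2 rises were 4 without the pairing, number 1 or with median centring, 2 without number 3 and 0 without the trend; stress response rises were 3 without the pairing, number 1 or 3 and 1 without the trend. The Sqstm1 call ended without number 3 (adjusted p = 0.076) or the trend (0.11), over 0.00087 to 0.11. Without the trend the calls of Hmox1 (adjusted p = 0.081, range 0.00061 to 0.081), Ppp1r15a (0.062, range 0.00034 to 0.062), Eif2ak3 (0.053, range 0.00065 to 0.21) and Atg5 (0.064, range 0.0018 to 0.064) ended, and that of Eif2ak3 also when its probe sets were averaged (0.21).

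Guidance and purine genes also held calls both ways. The shares that fell, 21.7% and 8.7%, were no higher than the 22.7% of genes above the filter. The shares that rose were 17.4% and 21.7%, against 10.3% of those genes. Of 23 semaphorin, plexin and guidance genes 4 rose and 5 fell (median 0.01). Sema6d read 3741, 1358 and 1525 in media and 543, 438 and 339 with DNA, a fall of -2.15 ± 0.22 (limma adjusted p = 0.00079), though its 3 other probe sets ran from -0.81 to -0.11. Of 23 purine signalling and ion channel genes 5 rose and 2 fell (median -0.19, or 0.02 with quantile normalization). P2ry14, the receptor for UDP-glucose, read 2741, 3466 and 4549 in media and 15063, 13108 and 14573 with DNA, a rise of 2.01 ± 0.16 (adjusted p = 0.000308). P2rx7, the ATP-gated channel upstream of the NLRP3 inflammasome, read 2386, 873 and 972 against 582, 406 and 289, a fall of -1.59 ± 0.20 (adjusted p = 0.00196), while Nlrp3 itself rose by 1.30. Semaphorin counts were 1 and 2 without number 3 and 0 and 2 without the trend. Purine list counts were 3 and 1 and then 2 and 1 in the same fits.

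Among the 15 largest rises, 6 lay outside the lists. Nts, the neuropeptide neurotensin, read 13.3, 8.48 and 1.99 in media and 836, 1158 and 472 with DNA, a rise of 5.07 ± 0.29 (limma adjusted p = 8.35e-05), or 3.55 with an offset of 64. Pou3f1, a POU-domain transcription factor, read 37.4, 11.3 and 20.9 against 1251, 891 and 672 and rose by 4.61 ± 0.26 (adjusted p = 7.14e-05). Htra4, a serine protease, read 76.6, 37.7 and 41.8 against 7222, 512 and 1082, a rise of 4.61 ± 0.48 (adjusted p = 0.000944). In Htra4 DNA array 1 stood far above arrays 2 and 3, as it did in the interferon genes, whereas Pou3f1 and Nts were of one order on the 3 DNA arrays. The others were BC023105 (4.81), the pseudogene Bambi-ps1 (4.38) and Calhm6 (4.17), a gene of the calcium homeostasis modulator family. Among the 15 largest falls, Tacc2, a centrosomal protein gene, read 180, 263 and 164 in media and 6.57, 5.63 and 5.45 with DNA, a fall of -3.29 ± 0.35 (adjusted p = 0.00101) that was -1.91 with an offset of 64. St6gal1, a sialyltransferase, read 3312, 1283 and 1797 in media and 226, 331 and 302 with DNA, a fall of -2.73 ± 0.31 (adjusted p = 0.00138), but its other probe set differed by -0.48. Pdcd4, an inhibitor of translation, read 2270, 1223 and 949 against 209, 334 and 154 and fell by -2.56 ± 0.27 (adjusted p = 0.00097). The other falls were Slc9a9 (-2.89), Mmachc (-2.78), which processes vitamin B12, Abcd2 (-2.74), a peroxisomal transporter, Marveld1 (-2.73), Sgsh (-2.73), a lysosomal sulfatase, Ears2 (-2.68), Tmem273 (-2.67), Tspan32 (-2.62), Klhdc1 (-2.61) and Zfp704 (-2.56). With probe sets averaged the fall was -1.34 for Slc9a9, -1.15 for Abcd2, -1.40 for Marveld1, -1.59 for Sgsh, -0.90 for Ears2, -1.38 for Tmem273 and -1.61 for St6gal1. The call of Slc9a9 ended without the pairing (adjusted p = 0.058, range 2.5e-05 to 0.058), that of Sgsh without the trend (0.07, range 0.0027 to 0.07) and that of Ears2 with probe sets averaged (0.052, range 0.00043 to 0.052).

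**Figure D5:**
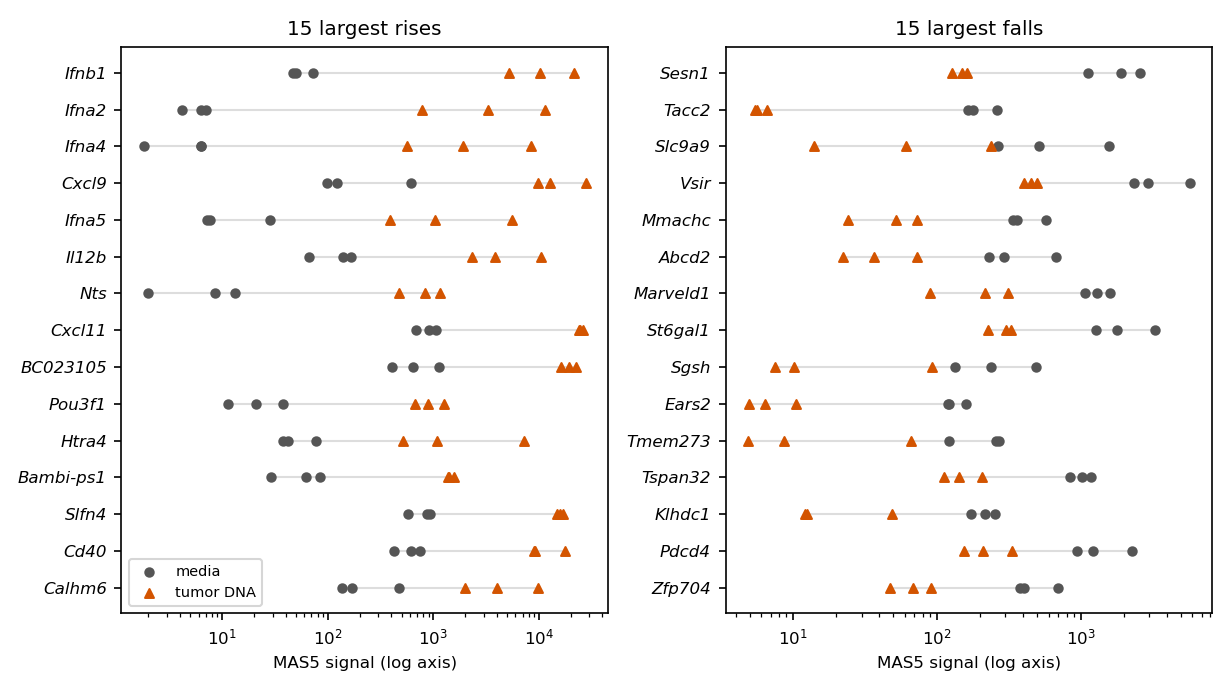
MAS5 signal on a log axis for the 15 largest rises (left) and 15 largest falls (right); grey circles are the 3 media arrays and orange triangles the 3 DNA arrays, joined by a line per gene. Only genes whose groups do not overlap were eligible; the 3 DNA arrays spread widely for Ifnb1, Ifna2, Ifna4, Ifna5 and Htra4 and narrowly for Cxcl11 and Slfn4.

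Markers of other cell types were read beside these results. Of 10 T and NK cell markers 3 rose, and their summed signal went from 324 to 453 in media to 1238 to 2074 with DNA. Klrk1, the activating receptor NKG2D, read 100, 82.9 and 62.5 in media and 1438, 1234 and 762 with DNA, a rise of 3.54 ± 0.19 (limma adjusted p = 6.55e-05). Without Klrk1, Gzmb and Cd247 the other 7 markers summed to 189 to 226 in media and 204 to 268 with DNA, with Cd3e at 10.6 to 42.5. Of 9 mast cell and basophil markers 1 rose: Hdc, which makes histamine, read 123, 6.58 and 81.0 in media and 2050, 803 and 975 with DNA, a rise of 4.14 ± 0.33 (adjusted p = 0.000308). The other 8 summed to 760 to 1563 and 895 to 1904. Of 11 plasmacytoid dendritic cell markers 3 rose (Bst2, Tcf4 and Tlr7), and the other 8 summed to 807 to 1069 and 761 to 1273, with Siglech at 10.4 to 97.5. The sums of the other members leave out those called, so a small change in them follows from that choice. Such sums cannot show whether cells of a type changed in number. Of 10 macrophage and monocyte markers 2 rose and 3 fell, of 9 neutrophil markers 1 rose and 1 fell, of 7 B cell markers 1 rose, and of 9 fibroblast and endothelial markers 1, Kdr, rose (3.35 ± 0.38, adjusted p = 0.00128), while 0 of 7 erythroid and megakaryocyte markers were called. Many of these calls depended on the fit. Without the pairing the calls ended for the macrophage markers Mertk (adjusted p = 0.25, range 0.00031 to 0.25), C1qa (0.48, range 0.0013 to 0.48) and Mrc1 (0.38, range 0.0014 to 0.38), the neutrophil marker Ngp (0.66, range 0.0059 to 0.66) and the B cell marker Ms4a1 (0.62, range 0.015 to 0.62). Ms4a1 lost its call in 6 of 11 alternative fits, Ngp in 5, Mrc1 in 4, and C1qa and the neutrophil marker Mmp8 in 3 each (Mmp8 range 0.0048 to 0.15). The Gzmb call ended without the pairing (adjusted p = 0.066, range 0.0013 to 0.066), and that of Cd247 in 7 of 11 alternative fits (up to 0.4, range 0.011 to 0.4).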

How the data were processed

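RNA of 6 wild-type samples was read on Affymetrix arrays, 1 per sample, with biotin-labelled cRNA made from 6 ug of total RNA. The deposited values are linear signal intensities that the authors made with MAS5, as recorded in the submitters' processing notes. The MAS5 version is not given in the sources used here. No detection calls were used, and the number of arrays limits the precision. The 3 columns of STING knockout arrays were not used. Of 45101 probe sets 64 were controls; of the other 45037, 34945 carried 1 gene symbol, 932 several and 9160 none in GEO's platform annotation; probe sets of the last 2 kinds name no gene here. Each of 18193 genes was read from its brightest probe set, by the mean of the 6 arrays. Models with the replicate number and the treatment (lmFit, then eBayes with an intensity trend, limma 3.58.1 in R 4.3.3) were fitted to log2(signal + 16) of all 45037 probe sets, and 2-sided p-values were adjusted by Benjamini-Hochberg over them. The fit has 2 residual degrees of freedom before limma shares the spread between probe sets. It was tested on simulated data. Arrays were paired by the numbers in the sample titles, as a rule of the comparison. Same-numbered arrays deviated from their group means together (r = 0.379, 0.341 and 0.323, against -0.243 to -0.0917 for different numbers). Deviations from a group mean cancel within the group, so the negative values for different numbers are partly built in. Genes for the text were taken from the 15 largest rises and falls among called genes whose groups do not overlap, the 4 called members of each list with the smallest adjusted p, a set of pathway genes whatever their result, and called markers. Not every one of the 209 is named. Which of them are described, and any gene named beyond them, were chosen after their values were seen. Of the 40 lists' genes 971 were measured. Each list is given by its counts and median beside those of all genes, with no test of its own. The members and lists were chosen with earlier results of these data known. Promoter windows are RefSeq sequence of GRCm38.p6. Alternatives were the fit without pairs, offsets of 64 and 1, a filter on low values, quantile normalization, median centring, no trend, each number left out and the mean of a gene's probe sets.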

Additional observations from a re-analysis of the deposited data

How the results depend on the processing

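No called gene among the 209 named ones changed direction under any of the 11 alternatives. The uncalled genes Csf1r, Csf2rb and Irf8, near 0, did: Csf1r and Csf2rb with quantile normalization, Irf8 without number 3, and Csf1r and Irf8 with the mean of probe sets. Calls ended for 72 of them without the intensity trend, 28 without the replicate block that pairs the arrays, 28 without number 3, 14 with the mean of probe sets, 11 without number 1, 7 with quantile normalization, 6 without number 2, 3 with an offset of 64, 2 with median centring and 0 with an offset of 1 or a filter on low values. Genes called higher numbered 549 without the trend and 815 to 1200 with a number left out, and probe sets called higher 1081 and 1440 to 2332. Genes called lower numbered 1799 without the replicate block, 678 without the trend and 1353 to 2394 with a number left out, and probe sets called lower 3059, 1274 and 2193 to 3930. With a number left out the fit rests on 2 pairs, so it has fewer samples; the cause of the other changes was not tested. The median over all genes went from -0.05 to -0.19 with the filter, which leaves 12626 genes. The split of higher against lower calls was 1504 and 2236 genes with quantile normalization and 1601 and 3526 with the filter. List medians near 0 changed sign in places: purine signalling to 0.02, growth factor receptors to -0.15 and Fc receptors to -0.04 with quantile normalization, class II to 0.10 without number 3, BCL2 to -0.17, growth factor receptors to -0.15 and semaphorins to -0.04 without number 2, BCL2 to -0.02 with the filter, and growth factor receptors to -0.03 with the mean of probe sets. Signals near the floor limit the size of a change: 173 genes called higher and 173 called lower had a mean below the array median of 62.4.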

Other observations

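Called genes often lay next to another gene called the same way in the RefSeq gene order (GRCm38.p6). Of 1363 placed genes called higher 375 (27.5%) had such a neighbour, and 14.3% of all 18031 placed genes lay next to a gene called higher. For genes called lower the shares were 37.9% (1097 of 2897) and 29%. The longest run of genes called higher held 8 Schlafen genes, Slfn5, Slfn9, Slfn8, Slfn10-ps, Slfn2, Slfn1, Slfn4 and Slfn3. A run of 7 held the membrane-protein genes Ms4a4c, Ms4a4b, Ms4a6c, Ms4a6b, Ms4a4d and Ms4a6d with Gm8369, and 1 of 6 held Aim2 with Ifi213, Ifi209, Ifi207, Ifi204 and Mndal, members of the same family of DNA-binding proteins. Another held the antiviral genes Ifit2, Ifit3, Ifit1bl1, Ifit1bl2 and Ifit1. The longest runs of genes called lower held 7 genes, 1 of them Wdr12, Carf, Nbeal1, Cyp20a1, Abi2, Raph1 and Cd28. These runs were chosen after their values were seen.

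Probe sets of one gene did not always move together. Of 823 genes called higher that had another probe set, 480 had another called higher as well, against 781 of 1842 among genes called lower. In 16 of the 9010 genes with several probe sets, some were called higher and others lower.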
